A study of Gallus gallus with 8 samples.

Results

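The ligands and receptors of the axon guidance families were followed in chick cranial ectoderm as 56 genes, which are measured by 145 probe sets, of the 13009 genes and 38439 probe sets tested. They were chosen by name alone, as every gene whose symbol in the array's annotation is that of an ephrin, an Eph receptor, a vertebrate semaphorin, a plexin, a neuropilin, a netrin, neogenin, an UNC5 receptor, a Slit or a Robo. Each gene is represented by its brightest probe set, the one with the highest mean log2 intensity over the 8 arrays. A total of 20 genes have 1 probe set and 36 have several, up to 9, and other probe sets are given where their call differs from that of the brightest. The list holds 4 ephrins, 12 Eph receptors, 16 semaphorins, 7 plexins, 2 neuropilins, 5 netrins, 4 netrin receptors, 3 Slits and 3 Robo receptors.

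Otic ectoderm, which forms the inner ear placode, and the more lateral ectoderm of the same level were taken fresh from stage 10 chick embryos. Presumptive trigeminal ectoderm of stage 8 embryos was kept for 18 hours in collagen gels in DMEM/F12 medium with N2 supplements, either without FGF2 or with 50 ng/ml FGF2. FGF2 is a fibroblast growth factor, and the study asked which genes of the otic placode this treatment can induce. Each of the 4 groups was hybridised to 2 arrays, and each array received amplified RNA of pooled pieces of ectoderm from embryos of no stated genotype. The fresh and the cultured groups differ in stage, region and culture together, so that these cannot be told apart.

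Guidance molecules are read by cells as signals to approach or to withdraw. Ephrins are held on the membrane and are bound by Eph receptor tyrosine kinases on the neighbouring cell, semaphorins are bound by plexins, with neuropilins as co-receptors of the secreted class, netrins are bound by neogenin and UNC5 receptors, and Slits are bound by Robos. They are best known from growing axons, but the same families also keep cell populations apart in early ectoderm, guide neural crest cells and shape blood vessels.

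Values are intensities on a linear scale as deposited, floored at 1 before the log2 was taken, and differences are on the log2 scale with limma's standard error (SE) over 2 arrays per group. A gene is called higher or lower when its fold change is above 2 and its unadjusted p is under 0.05, and the Benjamini-Hochberg adjustment of p was made across the 38439 probe sets. The array medians were 25.6 to 31.7. Of the 56 genes, 35 lay above the array median on all 8 arrays, 16 on some and 5 on none. Over these genes the median gap between replicates on the log2 scale was 0.86 in otic ectoderm and 0.34 to 0.45 in the other groups, while the correlation of the replicates was 0.934 for otic ectoderm, 0.919 for the untreated cultures and 0.956 to 0.979 for the rest. The summed intensity of 8 otic placode markers was 10730 to 13310 in otic ectoderm, 715 to 921 in lateral ectoderm, 4028 to 4191 in untreated and 5210 to 6128 in FGF2-treated trigeminal ectoderm. In otic ectoderm most of this sum was GBX2, at 8360 and 8846, which read 1446 and 1410 with FGF2. In the untreated cultures most of it was SOHO1, at 3410 and 3247. The 7 markers other than SOHO1 summed to 781 there, to 3391 to 3926 with FGF2 and to 712 to 903 in lateral ectoderm. Nothing in the labels says whether the 2 pools of a group came from separate collections, so the p-values measure the spread between these pools.

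**Figure D1:**
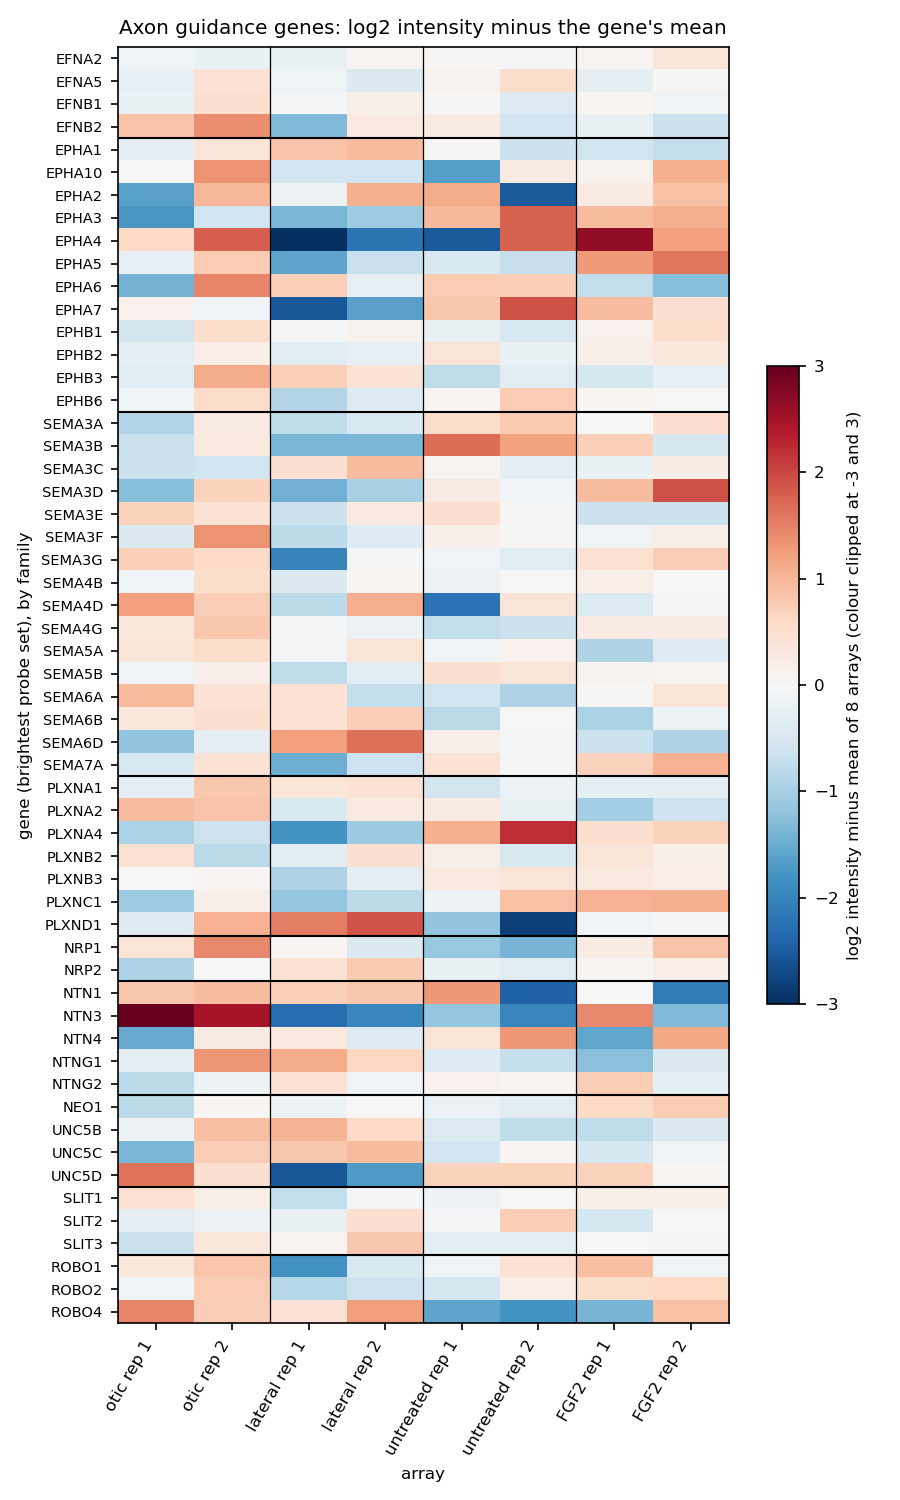
Log2 intensity of each of the 56 genes (rows, grouped by family) on each of the 8 arrays (columns), minus the mean of the gene over the 8 arrays, with red above and blue below that mean and the colour clipped at -3 and 3. EPHA7 and UNC5D are lowest in both lateral arrays, SEMA6D is highest there, and EPHA3 and PLXNA4 are higher on all 4 cultured arrays than on the 4 fresh ones.

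Otic ectoderm carried more EPHA7, UNC5D, NTN3, EPHA4, EPHA5, ROBO1, SEMA3G and EFNB2 than lateral ectoderm, and less SEMA6D, SEMA3C and NRP2. These are 8 of 56 genes higher, or 14.3%, beside 4.86% of all genes, and 3 lower, or 5.36%, beside 2.64% of all genes. No member passed an adjusted p under 0.05 with limma, the smallest being 0.213, and no probe set of the array did, although 3168 had an unadjusted p under 0.05. The median difference over the 56 genes was 0.35, against 0.19 over all genes. In pooled tissue, fewer cells of a type and less RNA per cell cannot be told apart.

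Among the ligands, EFNB2 encodes ephrin-B2, a membrane ligand of EphB receptors and of EphA4. Its intensities were 40.8 and 59.9 in otic ectoderm, 9.0 and 27.8 in lateral ectoderm, 26.9 and 15.1 in untreated and 19.3 and 14.5 in FGF2-treated trigeminal ectoderm. Both otic arrays lay above the other 6. The difference of otic minus lateral ectoderm was 1.64 (SE 0.63, adjusted p = 0.568), a 3.13-fold difference, and the call was lost when either otic array, lateral replicate 1 or either FGF2 array was left out, at 0.83 to 1.92. The other 3 ephrins, EFNA2, EFNA5 and EFNB1, were not called in any comparison, with otic differences of -0.07, 0.38 and 0.07.

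A further probe set, which has no symbol in the annotation and so is not counted among the 145, is named as ephrin-B2 in the study's tables. It read 1108 and 781 in otic ectoderm, 203 and 265 in lateral ectoderm, 318 and 225 in untreated and 341 and 401 in FGF2-treated trigeminal ectoderm. The otic arrays were again the 2 highest of the 8. Its otic difference was 2.00 (SE 0.39, adjusted p = 0.251), and its FGF2 difference was 0.47 with a 95% interval of -0.48 to 1.41.

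The Eph receptors gave 3 of the 8 higher calls, all in the EPHA subfamily, which mainly binds ephrin-A ligands. EPHA7 read 306 and 263 in otic ectoderm, 47.8 and 89.3 in lateral ectoderm, 485 and 1048 in untreated and 532 and 390 in FGF2-treated trigeminal ectoderm. The lateral arrays stood apart as the lowest, and the cultured arrays were above the otic ones whether or not FGF2 was present. Its otic difference was 2.12 (SE 0.53, adjusted p = 0.368), or 4.34-fold, and the call held with each array left out in turn. The FGF2 difference was -0.65, with a 95% interval of -1.92 to 0.63.

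EPHA4, which binds both classes of ephrin, read 20.6 and 47.6 in otic ectoderm, 1.4 and 3.0 in lateral ectoderm, 2.4 and 47.1 in untreated and 86.9 and 32.2 in FGF2-treated trigeminal ectoderm. The groups of the otic comparison do not overlap, whereas the untreated replicates lie far apart. The otic difference was 3.93 (SE 1.39, adjusted p = 0.532). It shrank to 0.92 and lost its call when 32 was added to every intensity, a setting that damps low values, and the call was also lost without any 1 of the 4 otic and lateral arrays, at 3.33 to 4.54.

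EPHA5, another ephrin-A receptor, read 73.4 and 146 in otic ectoderm, 29.2 and 55.0 in lateral ectoderm, 63.5 and 53.4 in untreated and 212 and 259 in FGF2-treated trigeminal ectoderm. It was high in both the otic and the FGF2-treated arrays, with no overlap within either comparison. The otic difference was 1.37 (SE 0.50, adjusted p = 0.555), and its call was lost without otic replicate 2, lateral replicate 1 or either FGF2 array, at 0.87 to 1.37. A second, dimmer probe set of EPHA5, at 1.9 to 15.2 on the 8 arrays, had an otic difference of -0.16. The 4 EPHB receptors were not called in any comparison, and their median otic difference was 0.10.

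Of the 16 semaphorins, SEMA3G was called higher in otic ectoderm, SEMA6D and SEMA3C were called lower, and 13 were not called. Their median otic difference was 0.70, and 13 of the 16, or 81.2%, were positive beside 64.2% of all genes. After quantile normalization these shares were 81.2% and 50.8%, with a median of 0.53 for the semaphorins, and no call rests on them. SEMA3G, a secreted class 3 semaphorin, read 88.5 and 81.3 in otic ectoderm, 13.6 and 52.7 in lateral ectoderm, 50.1 and 42.3 in untreated and 74.9 and 90.7 in FGF2-treated trigeminal ectoderm. The otic and FGF2-treated arrays were the highest 4, and lateral replicate 1 was the lowest by far. The difference was 1.66 (SE 0.64, adjusted p = 0.571), and without lateral replicate 1 it was 0.69 and not called. The call was lost as well when either otic array or any cultured array was left out, at 1.60 to 1.73, and it was kept only without lateral replicate 2. The other 4 probe sets of SEMA3G were not called, at 0.03 to 1.51. SEMA5A, a transmembrane semaphorin with 9 probe sets, was not called by its brightest (0.28), but 1 dim probe set of 2.0 to 33.6 was called higher, at 2.67.

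SEMA6D, a transmembrane semaphorin, had the largest negative otic difference of the 56 genes. It read 170 and 320 in otic ectoderm, 905 and 1223 in lateral ectoderm, 431 and 372 in untreated and 247 and 207 in FGF2-treated trigeminal ectoderm. Both lateral arrays were above every other array. The otic difference was -2.17 (SE 0.43, adjusted p = 0.255), a 4.51-fold difference, and the call held with each array left out. Of its other 3 probe sets, 2 were also called lower, at -2.13 and -2.09, and the third stood at -0.68.

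SEMA3C, a secreted semaphorin, read 17.5 and 18.3 in otic ectoderm, 38.6 and 52.8 in lateral ectoderm, 28.9 and 22.7 in untreated and 23.9 and 31.9 in FGF2-treated trigeminal ectoderm. All of these values lie near the array medians, and the otic arrays were the lowest. The difference was -1.33 (SE 0.37, adjusted p = 0.412), and -1.11 without a call when lateral replicate 2 was left out. The second probe set of SEMA3C was also called lower, with otic intensities of 0.7 and 7.3 and lateral ones of 65.7 and 48.1.

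The semaphorin co-receptors went separate ways. NRP2, which encodes neuropilin-2, read 289 and 556 in otic ectoderm, 742 and 946 in lateral ectoderm, 478 and 425 in untreated and 568 and 626 in FGF2-treated trigeminal ectoderm. The lateral arrays were the highest. The difference was -1.06 (SE 0.42, adjusted p = 0.587), close to the fold limit. Its call was lost when any array except otic replicate 2 was left out, at -1.24 to -0.59, and its other 2 probe sets were not called, at -0.16 and -0.48. NRP1, the co-receptor for SEMA3A, had an otic difference of 1.11 that was not called (unadjusted p = 0.0614, 95% interval -0.07 to 2.29).

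None of the 7 plexins, the signalling receptors for semaphorins, was called by its brightest probe set. PLXNA2 read 4885 and 4632 in otic ectoderm, 1884 and 3172 in lateral ectoderm, 3060 and 2198 in untreated and 1277 and 1671 in FGF2-treated trigeminal ectoderm. The otic arrays were the highest and the FGF2-treated ones the lowest. The otic difference was 0.96 (95% interval -0.04 to 1.96), just under the fold limit, while 2 of the 3 other probe sets were called higher, at 1.29 and 1.30. PLXND1, the receptor for SEMA3E, was at -1.40 (95% interval -3.08 to 0.27) and was not called.

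Of the netrins and their receptors, 2 were called. NTN3 was of low intensity outside otic ectoderm, and UNC5D was near or below the array medians on all arrays but otic replicate 1. The probe set annotated NTN3, a secreted netrin, read 213 and 43.9 in otic ectoderm, 1.6 and 2.0 in lateral ectoderm, 3.5 and 2.0 in untreated and 21.1 and 3.1 in FGF2-treated trigeminal ectoderm. Only the otic arrays were above the median of all probe sets. The otic difference was 5.76 (SE 1.08, adjusted p = 0.240), the largest of the 56 genes. With 32 added to every intensity the otic difference was 2.01 and was still called, and the call held without each array in turn. For this gene NTN1 is an older symbol in RefSeq, and the study's tables label it netrin 1. The probe set now annotated NTN1 is a different one, with otic intensities of 32 and 34.7 and lateral ones of 30 and 32, a difference of 0.10 (95% interval -2.92 to 3.13).

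UNC5D, a netrin receptor of the repulsive UNC5 type, read 54.6 and 24.5 in otic ectoderm, 3.0 and 5.4 in lateral ectoderm, 28.5 and 28.0 in untreated and 28.5 and 18.2 in FGF2-treated trigeminal ectoderm. The lateral arrays were far below the other 6, which overlapped with each other. The difference was 3.18 (SE 0.54), with the smallest adjusted p of the 56 genes, 0.213, and the call held with each array left out. With 32 added to every intensity the difference was 0.95, just under the fold limit. UNC5B and UNC5C had differences of -0.43 and -1.20 and neogenin (NEO1) of -0.29, and none of them was called.

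Among the Slit receptors, ROBO1 read 32.7 and 45.9 in otic ectoderm, 7.3 and 18.9 in lateral ectoderm, 23.7 and 34.8 in untreated and 48.0 and 24.1 in FGF2-treated trigeminal ectoderm. Both lateral arrays were below the other 6. The difference was 1.72 (SE 0.61, adjusted p = 0.531), and the call was lost without either otic array or lateral replicate 1, at 1.04 to 1.97. Another of its 6 probe sets was called higher as well, at 1.64, and the other 4 were at -0.18 to 0.63.

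ROBO2 read 115 and 210 in otic ectoderm, 68.8 and 80.7 in lateral ectoderm, 86.0 and 143 in untreated and 184 and 190 in FGF2-treated trigeminal ectoderm. The lateral arrays were the lowest 2. Its otic difference was 1.06 and was not called (unadjusted p = 0.0542), although another of its 5 probe sets was, at 1.14. The Slits themselves were not called in any comparison, with otic differences of 0.72 for SLIT1, -0.37 for SLIT2 and -0.61 for SLIT3.

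Of the genes that were not called, those farthest above lateral ectoderm, besides NRP1 and ROBO2, were EPHA10 (1.26), SEMA3B (1.17) and SEMA3F (1.04). Those farthest below, besides PLXND1 and UNC5C, were EPHA1 (-0.85), EPHA2 (-0.78) and NTNG2 (-0.63). Both other probe sets of NTNG2 had the opposite sign, at 1.06 and 0.77, without a call. SEMA3F, for example, had otic intensities of 128 and 440 and lateral ones of 100 and 132, so that only otic replicate 2 stood clear of the lateral arrays. Otic and lateral arrays did not overlap for 28 of the 56 genes, or 50.0%, beside 37.6% of all genes.

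Of the 35 genes above the median on all arrays, 4 were called in the otic comparison (EPHA5, EPHA7, NRP2 and SEMA6D), and of the other 21, 7 were called. A gene low in only 1 group falls among the 21 through the same difference that gives its call. The split therefore cannot show whether calls depend on brightness, and no share over all genes is given beside it. The overall shift between the groups entered the otic differences. It was 0.19 over all genes as deposited, 0.01 after quantile normalization and near 0 after median centring, and the split of 8 higher and 3 lower became 7 and 4 with the first and 6 and 4 with the second. The shares of all genes moved as well, from 4.86% higher and 2.64% lower to 3.33% and 3.87% with the first and 3.2% and 3.9% with the second. EFNB2 lost its call under both, SEMA3G under centring, and EPHA1 was called lower under both.

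Part of a list of neural tube markers was higher in otic ectoderm. The summed intensity over 9 genes was 3621 to 4165 in otic ectoderm and 711.6 to 1381 in lateral ectoderm, and 4 of the 9 were called higher (SOX2, SOX3, MSI1 and HES5). The study itself lists SOX2 and MSI1 (Musashi1) as otic placode genes and HES5 as otic-enriched. The others were not called, namely SOX1 (-0.06), PAX6 (0.36), OLIG2 (0.48), NKX6-1 (-0.17) and NKX6-2 (0.55). PAX6 read 19.2 and 44.3 against 13.4 and 38.5. Endothelial markers moved the other way, at 876.5 to 1931 in otic ectoderm and 3120 to 3436 in lateral ectoderm, with 3 of 11 called lower. CDH5 read 143 and 607 against 1114 and 1273, whereas KDR read 210.5 and 399.2 against 207 and 356.1. Of 8 epidermal markers, 3 were called lower (KRT14 at -2.06, DSP at -2.08 and GRHL3 at -2.43) and none higher. The others (KRT5, TFAP2A, TFAP2C, CDH1 and EPCAM) were at -0.07 to 0.41, and the median of the list was 0.04. Its sums overlapped, at 13160 to 15160 in otic and 13330 to 16900 in lateral ectoderm. Blood markers had 2 of 5 called lower and none higher. Placodal neuron markers had 3 of 10 called higher and none lower. Neural crest markers had 2 of 7 called higher (SOX10 at 2.29 and TFAP2B at 1.23) and none lower, but their median otic difference was -0.04. The crest sum was 1008 to 2592 in otic ectoderm against 1992 to 2963 in lateral ectoderm. Endodermal markers summed to 2440 to 5005 against 5804 to 9604 over 8 genes, but only APOA1 (-1.42) was called lower and CER1 (3.77) was called higher. Mesodermal markers summed to 2429 to 4876 against 6764 to 8520 over 14 genes, and without COL3A1, the only one called lower (-3.65), to 2297 to 4184 against 3708 to 3839. Their median otic difference was 0.30, and FOXC2 (3.43) was called higher. The part of all these cell types in the guidance gene differences was not tested.

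**Figure D2:**
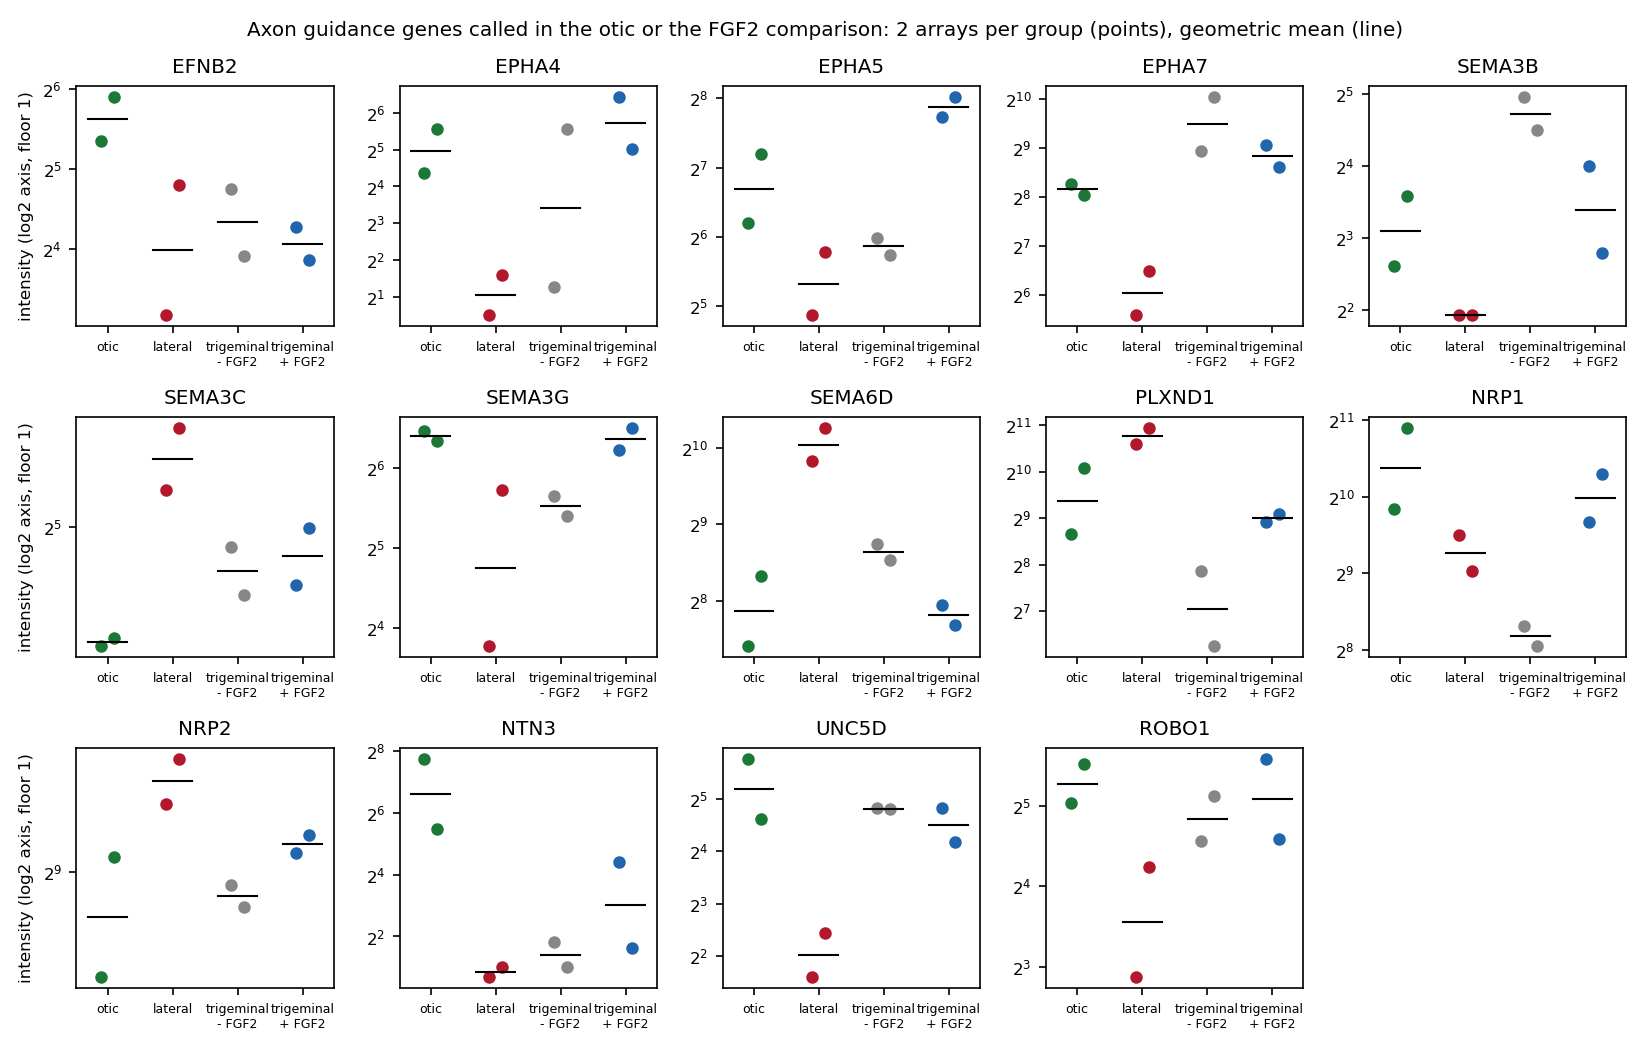
Intensity on a log2 axis of the 14 genes called in the otic or the FGF2 comparison, with a point for each of the 2 arrays of a group and a line at their geometric mean. UNC5D and EPHA7 are lowest in lateral ectoderm, SEMA6D is highest there, EPHA5 and NRP1 are raised in FGF2-treated over untreated trigeminal ectoderm, and the untreated replicates of EPHA4 (2.4 and 47.1) lie far apart.

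FGF2 raised EPHA5, NRP1 and PLXND1 in cultured trigeminal ectoderm and lowered SEMA3B. These are 3 of 56 genes higher, or 5.36%, beside 2.14% of all genes, and 1 lower, or 1.79%, beside 1.48% of all genes. No member passed an adjusted p under 0.05 with limma, the smallest being 0.574, nor did any probe set of the array, of which 2020 had an unadjusted p under 0.05. The median difference of the 56 genes was 0.15, against 0.12 over all genes.

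EPHA5, at 63.5 and 53.4 in untreated and 212 and 259 in treated cultures, differed by 2.01 (SE 0.50, adjusted p = 0.574), or 4.03-fold, and the call held with each array left out in turn. It was the only member called higher in both comparisons, and the 2 treated arrays were the brightest of the 8. Its dimmer probe set differed by 0.73 and was not called.

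NRP1, which encodes neuropilin-1, a co-receptor of secreted semaphorins and of VEGF, read 318 and 264 in untreated and 817 and 1258 in treated cultures. In fresh tissue it was 918 and 1912 in otic and 722 and 521 in lateral ectoderm, so that the untreated cultures were the lowest of the 4 groups. The FGF2 difference was 1.81 (SE 0.49, adjusted p = 0.638), or 3.5-fold. Its second probe set was also called, at 2.18. Without FGF2 replicate 2 the difference was 1.5 and was not called.

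PLXND1 read 233 and 75.5 in untreated and 481 and 546 in treated cultures, against 402 and 1081 in otic and 1539 and 1968 in lateral ectoderm. The untreated arrays were the lowest and the lateral arrays the highest. The FGF2 difference was 1.95 (SE 0.69, adjusted p = 0.850). It was 1.14 without untreated replicate 2 and 1.86 to 2.04 without either FGF2 array, and in none of these was it called. A second, dim probe set of PLXND1 was at -0.70 and was not called.

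PLXND1 is best known from blood vessels, and the sum over the 11 endothelial markers lay in the same order of groups. It was 240 to 305.2 without FGF2 and 460.5 to 510.5 with it, with CDH5 at 29.2 and 19.4 against 102 and 59.6. Of the 11 markers, 1 was called higher with FGF2 (TAL1, at 1.31) and none lower. Their median FGF2 difference was 0.968. Endodermal markers, over 8 genes, summed to 455.6 to 1608 without FGF2 and 1098 to 1135 with it, ranges that overlap. None of the endodermal markers was called with FGF2, and their median FGF2 difference was 0.215. They summed to 2440 to 5005 in otic and 5804 to 9604 in lateral ectoderm. NRP1, also found in vessels, had another order of group means, rising from untreated through lateral and FGF2-treated to otic ectoderm. Markers of other tissues were called higher with FGF2 too, namely TWIST1 (1.34), FOXC1 (1.48) and MEOX2 (2.38) of 14 mesodermal, NEUROD1 (3.35) and ISL1 (1.94) of 10 placodal neuron and NKX6-1 (2.80) and OLIG2 (1.35) of 9 neural tube markers, and none of these 3 lists had a marker called lower. Of 8 otic placode markers, 4 were called higher with FGF2 (PAX2 at 2.04, GBX2 at 2.96, EYA2 at 2.29 and SPRY2 at 2.7) and none lower. The others (SOX8, GATA3, EYA1 and SOHO1) were at -0.73 to 0.92. ISL1 is also listed by the study as an otic-enriched gene that FGF raises. The part of these cell types in the FGF2 differences was not tested.

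SEMA3B, a secreted semaphorin, read 31.2 and 22.6 in untreated and 16 and 6.9 in treated cultures, against 6.1 and 12 in otic and 3.8 in both lateral arrays. Only untreated replicate 1 exceeded its array's median. The difference was -1.34 (unadjusted p = 0.0497, adjusted p = 0.950), at the very edge of the call. It was lost without either untreated array, either lateral array or FGF2 replicate 2, at -1.57 to -0.73, and it was -0.44 with 32 added to every intensity.

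Among the genes that were not called, the largest positive FGF2 differences were those of EPHA4 (2.31), NTN3 (1.61), ROBO4 (1.44), SEMA3D (1.34) and EPHA10 (1.28). The 95% intervals all held 0, as for EPHA4 with -1.04 to 5.67. Without untreated replicate 2 the FGF2 difference of EPHA4 was 4.46 and was called, and without untreated replicate 1 it was 0.17. SEMA3D, a secreted semaphorin, read 538 and 421 in untreated and 844 and 1711 in treated cultures, and its 3 probe sets all had positive differences without a call. The largest negative differences were those of EPHA6 (-1.75), NTN4 (-1.05), PLXNA4 (-1.04), SEMA3E (-0.91) and PLXNA2 (-0.83). After quantile normalization PLXNA2 and PLXNA4 were called lower, which made the split 3 higher and 3 lower.

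Some differences were reproducible between arrays but small. SEMA4G, a transmembrane semaphorin, read 45.3 and 48.4 in untreated and 89.4 and 89.9 in treated cultures, and NEO1 read 1066 and 969 against 1833 and 2052. Both differences, 0.94 and 0.93, stayed just under the 2-fold limit, and these genes were singled out after their values were seen. Treated and untreated arrays did not overlap for 30 of the 56 genes, or 53.6%, beside 40% of all genes. Dim probe sets of SEMA3G (2.61), SEMA7A (2.11) and SEMA5A (1.79) were called higher with FGF2 while their brightest ones were not, at 0.84, 0.68 and -0.66, and a dim probe set of PLXNA1 (-3.13) was called lower while the brightest was at 0.07.

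**Figure D3:**
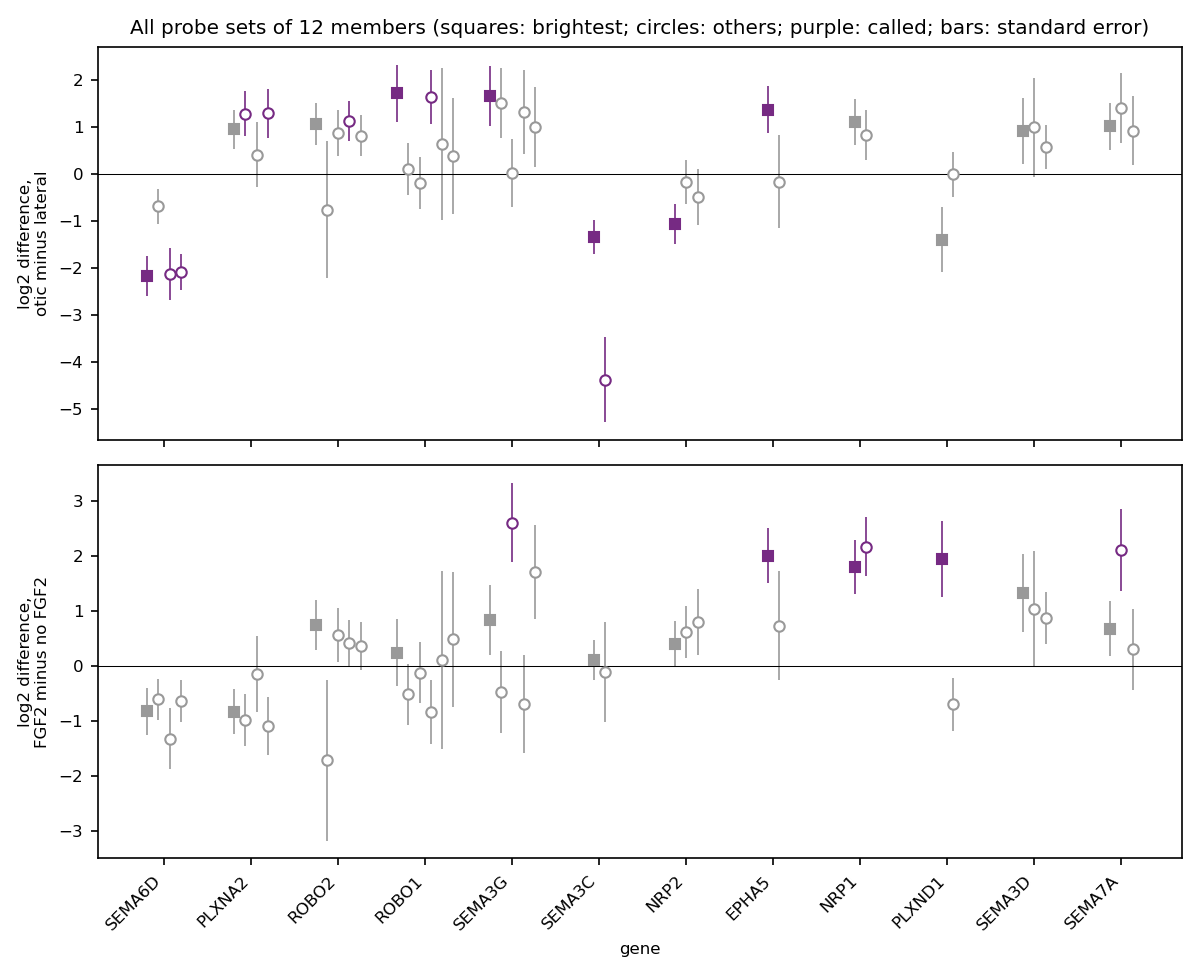
Log2 differences of every probe set of 12 genes, otic minus lateral above and FGF2 minus no FGF2 below, with squares for the brightest probe set, circles for the others, purple for those called and bars for the standard error. For SEMA6D 3 of 4 probe sets are called lower in otic ectoderm and for NRP1 both are called higher with FGF2, whereas the second probe sets of EPHA5 and PLXND1 do not follow the first.

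Otic genes and FGF2 responses were then set side by side. Of the 8 genes higher in otic ectoderm, 1 was also higher with FGF2 (EPHA5), or 12.5% of the 8 and 33.3% of the 3. Over all genes 61 were higher in both, or 9.65% of 632 and 21.9% of 279. The comparisons share no arrays, although they share the fit's estimate of the spread. No member was called in opposite directions, as were 0.223% of all genes, and 42 of the 56, or 75%, were called in neither, beside 89.8% of all genes.

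Whether the otic and the FGF2 difference of a gene were unequal was tested directly as a difference of differences. This was called for 9 genes, or 16.1%, beside 4.74% of all genes, with no member past an adjusted p under 0.05 (smallest 0.501) although 2329 probe sets of the array had an unadjusted p under 0.05. The otic difference exceeded the FGF2 difference for UNC5D (3.49, with a 95% interval of 1.65 to 5.34), EPHA7 (2.76, 0.96 to 4.57), NTN3 (4.14), SEMA3B (2.51), PLXNA2 (1.79) and SEMA3E (1.64). SEMA3E did not exceed 2.5 on any array, so its value depends on the floor. The FGF2 difference exceeded the otic one for PLXND1 (-3.35, -5.72 to -0.98), NRP2 (-1.47) and SEMA3C (-1.44).

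EPHA5 was not among these 9, with -0.64 and a 95% interval of -2.36 to 1.08, nor was NRP1 with -0.70 (-2.37 to 0.97). EPHA4 had 1.62 with an interval of -3.13 to 6.37. Its value turned on the untreated replicates (2.4 and 47.1), at 3.77 and called without replicate 1 and at -0.53 and not called without replicate 2. UNC5D and EPHA7 share a profile in which the lateral arrays are the lowest and the cultures lie above them, with or without FGF2. With each array left out in turn, UNC5D, EPHA7 and PLXND1 kept this call, and the other 6 lost it at least once. The 8 values ran from 2.92 to 4.07 for UNC5D, 2.21 to 3.32 for EPHA7 and -4.16 to -2.54 for PLXND1, and those of NTN3, which lost the call without either lateral or either untreated replicate, otic replicate 1 or FGF2 replicate 2, from 2.76 to 5.53.

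**Figure D4:**
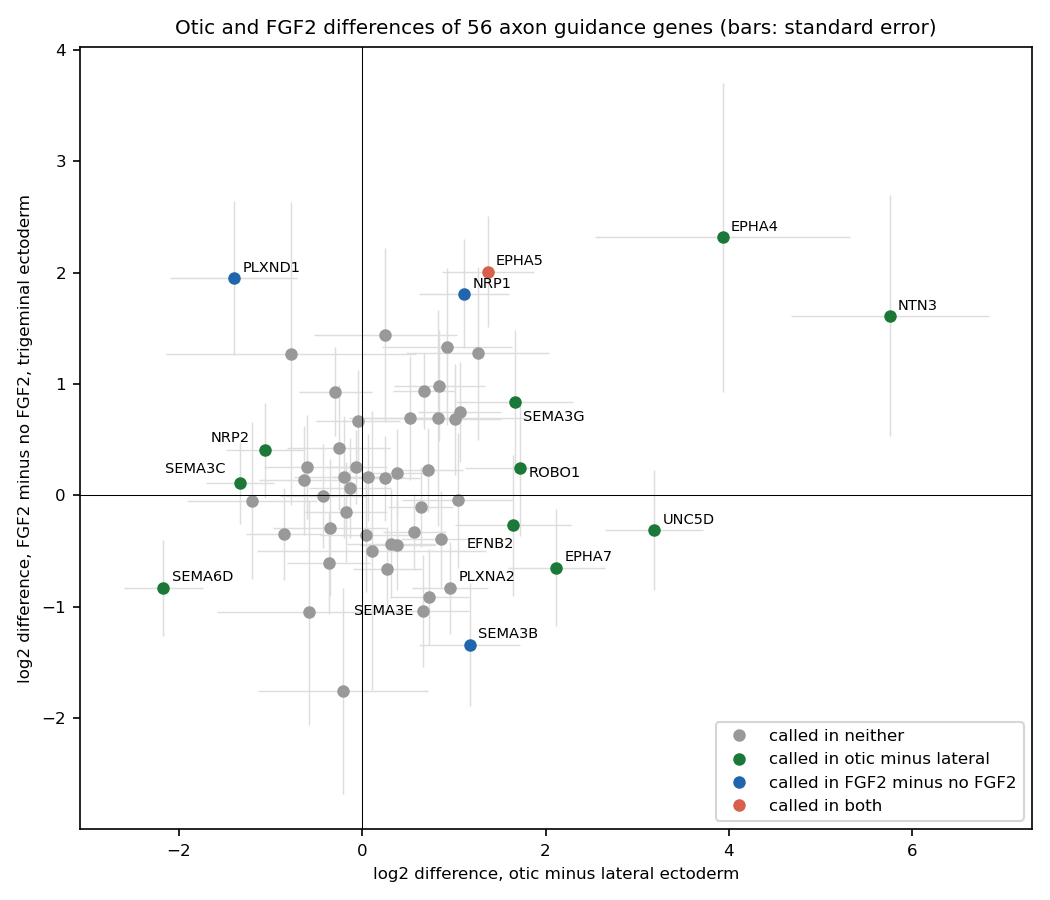
Log2 difference of otic minus lateral ectoderm (horizontal) against that of FGF2 minus no FGF2 (vertical) for the 56 genes, with bars for the standard error and colours for the calls. EPHA5 is called in both at 1.37 and 2.01, UNC5D and EPHA7 lie to the right and below 0, and PLXND1 lies at -1.40 and 1.95.

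On average over both treatments, cultured trigeminal ectoderm carried more EPHA3, PLXNA4, EPHA7, SEMA3B and SEMA3D than the mean of fresh otic and lateral ectoderm. It carried less PLXND1, ROBO4, NTNG1 and UNC5B. In all 8 of 56 genes were called higher, or 14.3%, beside 5.27% of all genes, and 4 lower, or 7.14%, beside 4.37%. No member passed an adjusted p under 0.05 with limma (smallest 0.0609), while 198 of all probe sets and 0.838% of all genes did. With 32 added to every intensity EPHA3, PLXNA4 and EPHA7 passed it, at 0.0125, 0.0238 and 0.0255.

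EPHA3, an ephrin-A receptor, read 82.6 and 184 in otic, 108 and 133 in lateral, 544 and 940 in untreated and 535 and 585 in FGF2-treated ectoderm. All 4 cultured arrays were above all 4 fresh ones, and the fresh groups overlapped. The difference was 2.38 (SE 0.36, adjusted p = 0.0609), or 5.21-fold, and its second probe set was called too, at 3.45. Neither the otic nor the FGF2 difference of EPHA3 was called, at 0.04 (-1.19 to 1.28) and -0.35 (-1.59 to 0.88).

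PLXNA4, a plexin that acts with neuropilins, read 38.7 and 48.6 in otic, 21.4 and 35.0 in lateral, 156 and 345 in untreated and 106 and 120 in FGF2-treated ectoderm. Here too cultured and fresh arrays did not overlap. The difference was 2.23 (SE 0.35, adjusted p = 0.0666), with another of its 5 probe sets called at 1.16 and the other 3 at -0.22 to 0.40. For EPHA7 the difference was 2.07 (SE 0.37, adjusted p = 0.0872), and its lateral arrays were the farthest below the cultured ones.

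SEMA3B and SEMA3D differed by 1.55 and 1.52, and the other 3 called genes were PLXNC1 (1.43), SEMA7A (1.06) and UNC5D (1.06). For SEMA3B the FGF2-treated arrays (16 and 6.9) overlapped the otic ones (6.1 and 12). For SEMA3D otic replicate 2 (710) lay above both untreated arrays (538 and 421). SEMA7A is a membrane-anchored semaphorin and PLXNC1 is its receptor. PLXNC1 read 465 and 1088 in otic, 437 and 562 in lateral, 877 and 1788 in untreated and 2013 and 2046 in FGF2-treated ectoderm, so that otic replicate 2 overlapped the cultured range. SEMA3D lost its call without lateral replicate 1, untreated replicate 1 or FGF2 replicate 2 (1.27 to 1.43), and SEMA7A without otic replicate 1 or any of the same 3 (0.83 to 0.97). UNC5D lost it without otic replicate 2, lateral replicate 1, either untreated array or FGF2 replicate 1 (0.77 to 1.07). Its mean log2 intensity in the cultures, 4.82 untreated and 4.51 with FGF2, lay below that of otic ectoderm (5.19). Only lateral ectoderm (2.01) was lower.

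The other probe sets of PLXNC1 (0.60 and 0.72), SEMA3D (0.79 and 1.29) and SEMA7A (0.11 and 0.37) were not called. Dim probe sets of SEMA3C (1.65) and SEMA5A (1.23) were called higher in the cultures while their brightest ones were at -0.10 and -0.63.

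On the lower side, PLXND1 differed by -2.04 (SE 0.49, adjusted p = 0.158), with its dim second probe set at 0.05 and not called, and ROBO4, a Robo of vessels, by -1.94 (SE 0.55). The FGF2-treated arrays of PLXND1 (481 and 546) lay between the otic ones (402 and 1081). ROBO4 was dim, with 17.4 and 10.4 in otic, 8.5 and 15.0 in lateral, 2.1 and 1.8 in untreated and 2.4 and 11.6 in FGF2-treated ectoderm. UNC5B, a netrin receptor also found in vessels, read 587 and 1206 in otic, 1321 and 969 in lateral, 492 and 381 in untreated and 385 and 482 in FGF2-treated ectoderm. Every cultured array of UNC5B was below every fresh one, and both of its probe sets were called, at -1.18 and -1.58. Without otic replicate 2 the brightest was at -0.92 and was not called.

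NTNG1, a membrane-anchored netrin, differed by -1.39, and the call was lost without otic replicate 2, lateral replicate 1, untreated replicate 2 or FGF2 replicate 1 (-1.32 to -0.99). Its other 2 probe sets did not follow, at 0.00 (intensities of 22.5 to 59.1) and 1.04 (0.6 to 13.7). The second probe set of NRP1 was called lower, at -1.03, while its brightest was at -0.73. The remaining 44 genes were not called. Cultured and fresh arrays did not overlap for 7 of the 56 genes, or 12.5%, beside 9.95% of all genes.

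Of the 11 endothelial markers 8 were called lower in the cultures, as were PLXND1, ROBO4 and UNC5B. Other lists fell too, with 5 of 8 endodermal and 2 of 5 blood markers called lower and none higher. Of 14 mesodermal markers 3 were called lower and 2 higher. Markers of placodal neurons were higher in the cultures, as were EPHA3 and PLXNA4, with 7 of 10 called higher. They summed to 2389 to 4613 in untreated, 3887 to 4112 in FGF2-treated, 1717 to 3094 in otic and 685.1 to 963.1 in lateral ectoderm. With FGF2 the median difference of these markers was 0.62. EPHA3 was at -0.35 and PLXNA4 at -1.04, both uncalled with 95% intervals that hold 0. In otic minus lateral ectoderm the median of these markers was 0.98, with EPHA3 at 0.04 and PLXNA4 at 0.66, also uncalled. Neural crest markers summed over 7 genes to 4913 to 6850 in the cultures and 1008 to 2963 in fresh ectoderm, with 3 called higher. Of 9 neural tube markers 4 were called higher and none lower, with PAX6 at 6.66, HES5 at 4.16, SOX2 at 1.82 and MSI1 at 1.16. The others (SOX1, SOX3, OLIG2, NKX6-1 and NKX6-2) were not called, at 0.05 to 0.82. The part of all these cell types in the guidance gene differences was not tested.

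**Figure D5:**
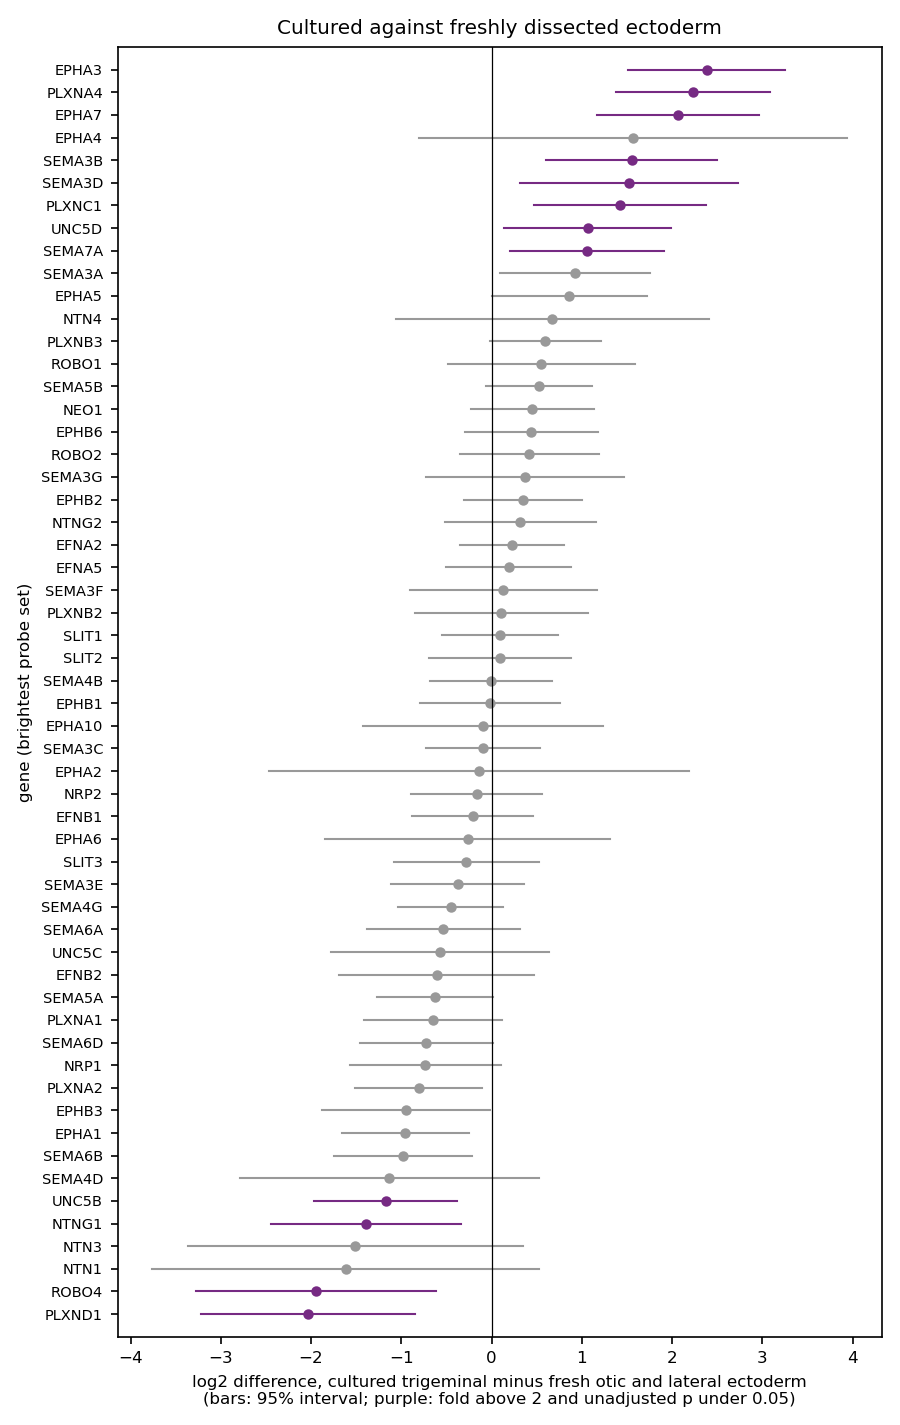
Log2 difference of the 4 cultured minus the 4 fresh arrays for the 56 genes in order of size, with 95% intervals and purple for the 12 genes called. EPHA3 (2.38) and PLXNA4 (2.23) lie at one end and PLXND1 (-2.04) and ROBO4 (-1.94) at the other.

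Further genes of the axon guidance pathway outside these families were taken from a list of 95, of which 85 were measured. Otic ectoderm was higher for 8 of the 85, or 9.41%, and lower for 2, or 2.35%, FGF2 raised 2 and lowered none, and the cultures were higher for 9 (10.6%) and lower for 7 (8.24%). The shares of all genes were 4.86% and 2.64% in the otic comparison, 2.14% and 1.48% with FGF2 and 5.27% and 4.37% in the cultures, so that the 2 lower in otic ectoderm and the 2 raised by FGF2, or 2.35% each, lie near them. Other guidance receptors called higher in otic ectoderm were CXCR4, the receptor for the chemokine CXCL12 (1.83), NTRK3, the receptor for neurotrophin-3 (1.83), PTPRD, a receptor phosphatase (1.19), and LRIG3 (1.35). The others were intracellular: PTK2, the focal adhesion kinase (1.34), DPYSL4, a collapsin response mediator (1.61), and the exchange factors VAV3 (1.35) and TIAM2 (2.19). RND2 (-1.24) and NGEF (-1.97) were lower.

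With FGF2 the 2 genes called were LRIG3 (1.43), a leucine-rich repeat membrane protein, and NRCAM (1.92), an adhesion molecule. LRIG3 read 172 and 206 in otic, 96.4 and 56.5 in lateral, 40 and 64.8 in untreated and 151 and 125 in FGF2-treated ectoderm, with no overlap in either comparison. NRCAM was dim on all arrays, at 1.6 to 14.9. The largest negative difference of the cultures in these genes was that of CXCL12, which read 2706 and 4935 in otic and 3878 and 2790 in lateral ectoderm against 300 and 731 in untreated and 565 and 295 in treated cultures, a difference of -2.99. Its receptor CXCR4 was higher in the cultures than in fresh ectoderm, by 1.79.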

How the data were processed

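RNA was amplified in 2 cycles, labelled with biotin and hybridised to GeneChip Chicken Genome arrays. The authors deposited a linear intensity per probe set and array, for which the sources used here give no method of summary, background correction or scaling. The scanned images were not used. Control probe sets, 96 in number, were left out, values under 1 were set to 1 (2.3% to 2.9% per array), and the log2 was taken with no scaling or filter. Gene symbols came from the platform annotation, and 55 of the 56 were the same in RefSeq (the identifier of ROBO4 had no match). No sequences are printed.

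All 8 arrays entered 1 fit with a mean per group (limma 3.58.1, R 4.3.3, lmFit and eBayes, two-sided, 4 residual degrees of freedom), which was tested on simulated data. Arrays give no depth, and their number limits the precision. Named were all genes called in the first 2 comparisons, the 5 largest uncalled differences per direction, the 5 largest calls per direction in the cultures, and genes the study names. PLXNC1, SEMA7A, SEMA4G and NEO1 were added after their values were seen. The members, lists and rules were chosen with earlier results of these data known. Alternatives were quantile normalization, median centring, an offset of 32, a fit of 4 arrays, leaving out the dimmest 40% of probe sets, an intensity trend in eBayes, a replicate block, a fold above 1.5, an adjusted p, any probe set of a gene, and each array left out. Figures used matplotlib 3.10.9.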

Additional observations from a re-analysis of the deposited data

How the results depend on the processing

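None of the named genes changed direction after a call under any alternative run. Of their values under the alternatives, 1426 kept their side of the limits, 82 lost a call and 52 gained one. The 1426 include values without a call to lose, so they do not give the share of calls that was kept. Some uncalled values among them changed sign, as for the otic difference of EPHA2, at -2.10 to 0.54 with each array left out. The count higher in otic ectoderm (8) was 3 with the offset of 32, where 4 of the 11 otic calls in either direction remained, and 5 with a fit of 4 arrays. With the offset 2.2% of all genes were higher and 1.45% lower in otic ectoderm. The count lower with FGF2 (1) was 3 after quantile normalization, 0 with the offset, without the dimmest probe sets and with the intensity trend, and 2 with any probe set counted, which also gave 6 higher with FGF2 and 14 for the difference of differences. The share of all genes lower with FGF2 was 1.73% after quantile normalization and 0.307% with the offset. Counting any probe set gives genes with several probe sets more ways to be called. In the cultures the offset left 5 higher and 2 lower, and a fold above 1.5 gave 8 lower. With the offset 2.52% of all genes were higher and 2.12% lower in the cultures. For the other counts of this paragraph no share of all genes is given. At an adjusted p under 0.05 all 7 counts were 0. With each array left out, the count higher in otic ectoderm ranged from 3 (without otic replicate 2) to 11 (without lateral replicate 2) and the count lower from 1 (without lateral replicate 2) to 7 (without otic replicate 2). It was 5 without either FGF2 array and 4 without lateral replicate 1 for the higher genes. The counts with FGF2 ranged from 2 (without FGF2 replicate 2) to 4 higher and 0 to 2 lower, those of the cultures from 5 (without lateral replicate 1) to 9 higher and 3 to 8 (without otic replicate 1) lower, and the difference of differences from 4 to 10, with 4 without FGF2 replicate 2. A group left with 1 array is then taken to have the spread of the others. Deviations of same-numbered arrays correlated at -0.023 to 0.028 over all 38439 probe sets. Since dim and noisy probe sets are included, this cannot settle whether same-numbered pools were collected or handled together. With the replicate number as a block the counts were 8 and 3 in the otic comparison, 3 and 1 with FGF2, 8 and 5 in the cultures and 9 for the difference of differences. EFNB2 lost its otic call and SEMA3E that of the difference of differences, ROBO2 (otic), NTN3 (cultures) and PLXNA4 (difference of differences) gained one, and with FGF2 PLXNA4 took the place of SEMA3B. The causes were not tested. Genes near or below the array medians, such as SEMA3B, SEMA3E, ROBO4 and NTN3, are measured least well.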
